A study of Mus musculus with 62 samples.

Results

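Histone deacetylases remove acetyl groups from lysines of histones and other proteins, which closes chromatin and lowers transcription at the genes they are recruited to. The zinc-dependent enzymes fall into 4 classes. Those of class I (Hdac1, Hdac2, Hdac3 and Hdac8) are mostly nuclear and work inside corepressor complexes such as Sin3, NuRD, CoREST and NCoR. Those of class IIa (Hdac4, Hdac5, Hdac7 and Hdac9) move between nucleus and cytoplasm, bind MEF2 transcription factors, are held in the cytoplasm by 14-3-3 proteins once phosphorylated, and have little deacetylase activity of their own. Hdac6, of class IIb, deacetylates tubulin and other cytoplasmic proteins, and Hdac11 is the only member of class IV. In the brain these enzymes are known as regulators of memory, synaptic plasticity and responses to drugs of abuse.

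The 10 genes Hdac1 to Hdac9 and Hdac11 were taken by gene name from the 56415 genes of the gene count table, together with their 96 isoforms of the 218795 in the isoform table. The study sequenced poly(A) RNA of 62 samples dissected from 5 brain regions of 16 male C57BL/6J mice aged 8 to 10 weeks: the cortex (CTX), the hippocampus in a dorsal (dHPC) and a ventral part (vHPC), and the striatum in a dorsal (DS) and a ventral part (VS). The mice received intraperitoneal saline or ethanol (2 g/kg, as a 20% solution), either as 1 injection (acute) or as 10 daily injections (chronic), and tissue was taken 4 h after the final injection. Each of the 20 combinations of region, paradigm and treatment had 3 or 4 mice, and 1 mouse contributed to several regions. The model is thus forced, passive exposure of males at a single time point.

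Total gene counts ran from 8149628 to 71164766 per library, with regional medians of 51703961 (CTX), 48892266 (dHPC), 14530176 (vHPC), 13091491 (DS) and 14524117 (VS). Across the libraries used, the members' counts of read pairs ran from 74 (Hdac8) to 10393 (Hdac11), and all 10 members passed the low-count filter in every comparison. CTX and dHPC were prepared with a kit that does not mark strand and sequenced on another platform than vHPC, DS and VS, so regions were compared within these batches only. DS chronic saline replicate 2 is listed at 0 from a point on chromosome 6 onwards and on chromosomes 7, 8, 9, X, Y and MT, where Hdac6, Hdac8 and Hdac11 lie among others, and it was left out. The dissections carried their region's markers, with summed striatal projection neuron markers of 2950 to 10430 CPM (counts scaled to the TMM-adjusted library total) in DS and VS and of at most 1697 elsewhere, except for dHPC chronic saline replicate 5 at 3068. In DS and VS, summed pallial excitatory neuron markers were mostly higher in saline than in ethanol libraries. These values are given with the Hdac9 results of each comparison and concern every ethanol result in DS and VS.

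Hdac9 (ENSMUSG00000004698) was the member that the ethanol comparisons turned on. It lies at chr12:34097579-34967094 on the minus strand (GRCm39), an 869.516 kb locus with 14.838 kb of annotated exon. It makes 2 kinds of protein. The long isoform Hdac9-205 has 25 exons and 1064 codons and includes the exons of the deacetylase domain. The short isoform Hdac9-201 has 12 exons and 588 codons, keeps the MEF2-binding end and lacks that domain. They part after exon 11 of the long form (chr12:34423877-34424137), where the short form reads on past the splice donor into the intron and meets a stop codon, while the long form continues at chr12:34362660-34362710. Both sequences are shown because they are the point at which the 2 forms part. The first 30 bases are shared, and capitals mark the GT of the donor that is read through and the stop codon TGA.
Hdac9-201: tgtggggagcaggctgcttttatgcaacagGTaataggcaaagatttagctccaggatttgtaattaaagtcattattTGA
Hdac9-205: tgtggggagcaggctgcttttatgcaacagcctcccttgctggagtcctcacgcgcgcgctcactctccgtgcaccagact

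Which histone deacetylases the 5 regions express was read from the saline libraries, as CPM per kb of exon so that genes could be compared (mean ± SD, 6 libraries a region, 5 in DS). Hdac11 was the most abundant member in every region, at 39.05 ± 1.75 (CTX), 36.2 ± 2.02 (dHPC), 42.2 ± 4.21 (vHPC), 41.4 ± 4.40 (DS) and 51.9 ± 4.25 (VS), and its lowest library lay above the highest library of any other member. A middle tier held Hdac5, Hdac2 and Hdac3. Hdac5 ran from 15.0 ± 1.91 (DS) to 17.7 ± 1.12 (vHPC), Hdac2 from 13.8 ± 0.668 (CTX) to 19.3 ± 1.18 (DS), and Hdac3 from 12.0 ± 0.840 (DS) to 14.2 ± 1.05 (VS). Within this tier the order was not fixed, since the libraries of Hdac2 and Hdac3 overlapped in CTX and those of Hdac5 and Hdac2 overlapped in dHPC, vHPC, DS and VS.

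Hdac6 and Hdac1 followed, at 5.48 to 7.05 and 5.08 to 8.57 CPM per kb as regional means, with Hdac1 above Hdac6 in dHPC, vHPC and DS and below it in CTX and VS, although only in CTX and dHPC did their libraries not overlap. The lowest 4 places in every region went to Hdac7, Hdac4, Hdac9 and Hdac8. The last place was taken by Hdac8 in CTX (1.59 ± 0.130), dHPC (1.97 ± 0.0651) and vHPC (2.18 ± 0.259), by Hdac4 in DS (1.53 ± 0.165) and by Hdac9 in VS (1.25 ± 0.166), and except in CTX its libraries overlapped those of the next member up. On this scale class IIa thus spanned the range, with Hdac5 near the top and its other members at the bottom. The scale divides by all annotated exon of a gene, 15.813 kb for Hdac4 and 14.838 kb for Hdac9. The isoform Hdac9-205 has 7940 exonic bases, so the low places of these genes depend on the length used. Some of these levels carry reads that the counting could not assign to 1 gene. In CTX and dHPC the exons of Hdac5 that overlap G6pc3 on the other strand (29.99% of its exonic bases) could not be told apart from their partner. The same held for those of Hdac7 that overlap Slc48a1 (24.12%) and those of Hdac11 that overlap Gm44002 (14.69%) and Gm14573 (2.89%). These shares come from another annotation, with 9422, 9933 and 4044 exonic bases for Hdac5, Hdac7 and Hdac11. The counts used 8780, 6755 and 3849 bases, and the shares of those were not computed. In all regions, pairs that also map to the pseudogene Hdac1-ps were counted for both.

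**Figure D1:**
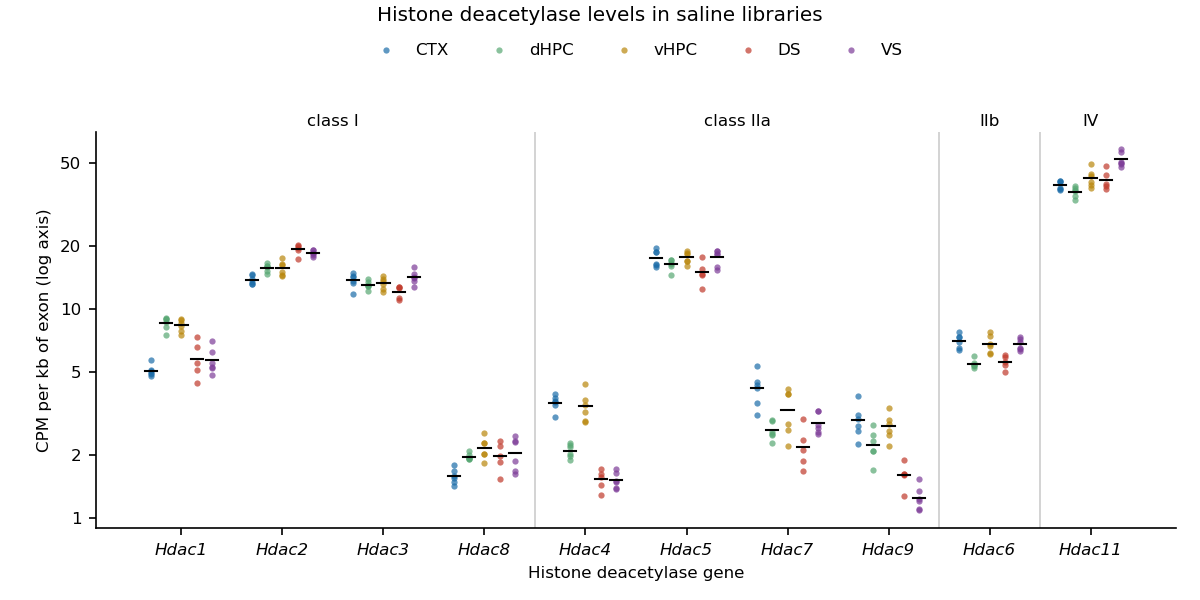
Level of each histone deacetylase in the saline libraries of each region, in CPM per kb of exon on a log axis. Points are libraries and bars are means. Hdac11 lay above every other member in all 5 regions, and Hdac8, Hdac4, Hdac9 and Hdac7 formed the lowest tier.

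Levels of one gene were next compared between regions of a batch with the mouse as a block, over all treatments. Between dHPC and CTX, 9 of 10 members passed the test (edgeR, FDR below 0.1), where 57.8% of all genes did. Among class I, Hdac1, the catalytic subunit shared by the Sin3, NuRD and CoREST complexes, ran from 16.4 to 19.6 CPM (median 17.5) in CTX and from 25.9 to 34.8 (median 30.9) in dHPC, with no overlap, a log2 fold change of 0.82 (SE 0.047, edgeR FDR = 4.94e-09). Hdac2, its close homologue, was higher in dHPC by 0.18 (log2) and Hdac8 by 0.31. The other called members were lower in dHPC: Hdac4 by a log2 fold change of -0.63, Hdac7 by -0.52, Hdac6 by -0.34, Hdac9 by -0.23, Hdac11 by -0.16 and Hdac3 by -0.09. Hdac5, of class IIa like Hdac4, Hdac7 and Hdac9, did not pass (-0.08, edgeR FDR = 0.119). In the saline libraries alone, Hdac11 (edgeR FDR = 0.385) and Hdac3 (0.478) did not pass, and Hdac3 also failed without dHPC chronic saline replicate 5 (0.134), the library with the most striatal marker RNA.

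Between vHPC and the striatum the widest difference was that of Hdac4, of class IIa. It ran from 37.7 to 69.2 CPM (median 50.0) in vHPC, from 16.0 to 27.2 (median 22.0) in DS and from 18.5 to 27.5 (median 23.8) in VS, so that no striatal library reached the lowest vHPC library. Its log2 fold change was -1.20 (SE 0.063, edgeR FDR = 4.60e-14) in DS and -1.12 (SE 0.068, FDR = 9.58e-13) in VS. Hdac9 ran from 20.6 to 50.1 CPM (median 33.0) in vHPC, 16.0 to 28.3 (median 20.5) in DS and 12.8 to 22.8 (median 16.3) in VS, with some overlap, and was lower by -0.66 and -0.996 (log2). In bulk tissue, fewer cells of a type and less RNA per cell cannot be told apart.

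In all, 8 of 10 members passed between DS and vHPC (57.2% of all genes) and 6 between VS and vHPC (49.8%). Hdac1 was lower in DS (-0.77) and VS (-0.70) by nearly as much as it was higher in dHPC than in CTX, with 15.2 to 25.2 CPM in DS, 16.7 to 24.7 in VS and 25.8 to 43.9 in vHPC. Hdac2 went the other way and was higher in DS (0.33) and VS (0.25). Hdac7 was lower in both (-0.64 and -0.25). Hdac6 (-0.29), Hdac5 (-0.22) and Hdac3 (-0.14) were lower in DS and did not pass in VS. In the saline libraries alone the calls of Hdac3 in DS (edgeR FDR = 0.209) and Hdac7 in VS (0.469) were lost. Hdac11 was higher in VS than in vHPC (0.43) and did not pass in DS, and Hdac8 passed in neither.

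The 2 parts of the striatum differed in 6 members (31.4% of all genes). Hdac11 ran from 144 to 186 CPM (median 170) in DS and from 183 to 260 (median 218) in VS, a log2 fold change of 0.40 (SE 0.057, edgeR FDR = 1.79e-05). Hdac7 (0.39), Hdac6 (0.31), Hdac5 (0.24) and Hdac3 (0.22) were also higher in VS, and Hdac9 was lower (-0.34, FDR = 0.0116). With saline libraries alone, 5 in DS and 6 in VS, Hdac11 was the only one of them to pass (0.29, FDR = 0.0789). The median log2 difference over the 10 members was -0.13 for dHPC against CTX, -0.26 for DS and -0.04 for VS against vHPC, and 0.15 for VS against DS, where the median over all genes lay between 0.01 and 0.04.

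**Figure D2:**
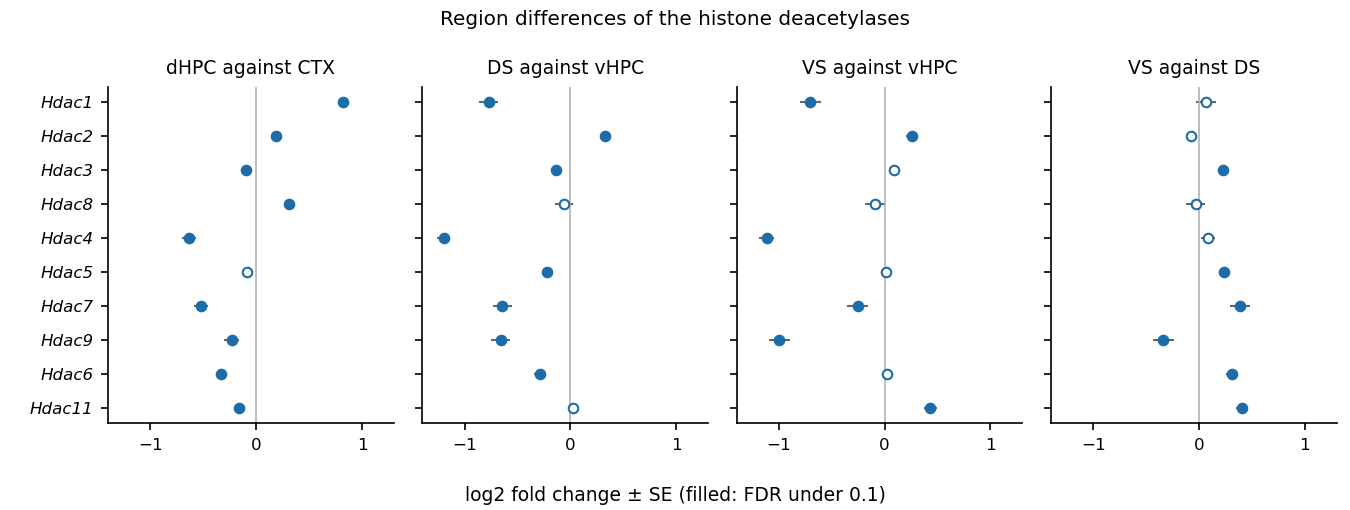
Log2 difference of each member between regions of a batch, all treatments, with the mouse as a block. Points are edgeR estimates and bars are 1 SE, with filled points at an FDR below 0.1. Hdac4 lay at -1.20 and -1.12 in DS and VS against vHPC. Hdac1 lay at 0.82 in dHPC against CTX and at -0.77 and -0.70 in DS and VS against vHPC. It was thus higher in the hippocampal part in each of these contrasts.

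Whether ethanol changed the histone deacetylases was tested in each region and paradigm. Over the 10 members and 10 comparisons, 1 test passed: Hdac9 fell in CTX after acute ethanol exposure. It was at 44.2, 46.3 and 40.9 CPM in the saline mice and at 33.1, 33.1 and 35.3 in the ethanol mice. All 3 ethanol libraries lay below all 3 saline libraries, and the log2 fold change was -0.38 (SE 0.067, edgeR FDR = 0.0271, a ratio of 0.770). In this comparison 1.99% of all genes passed and 1.17% passed downwards. The call was lost without acute saline replicate 4 (FDR = 0.120), without acute ethanol replicate 4 (0.140) and in a fit with all 4 CTX groups (0.623), while the estimate stayed between -0.42 and -0.34 as each library was left out. Among the cell type lists, summed pallial excitatory neuron markers ran from 1995 to 2152 CPM in these saline and from 2022 to 2117 in these ethanol libraries, oligodendrocyte markers from 1995 to 2265 and from 2338 to 3109 (5 of 10 called higher), and striatal markers from 411 to 495 and from 377 to 404 (3 of 10 called lower). Endothelial markers ran from 157 to 164 and from 135 to 150, and microglia markers from 180 to 191 and from 170 to 174, without overlap. The part of all these markers in the Hdac9 value was not tested.

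Hdac9 estimates were also negative elsewhere after acute exposure. In vHPC the saline mice were at 50.1, 38.9 and 37.1 CPM and the ethanol mice at 32.8, 26.6 and 27.7, with no overlap (log2 fold change -0.54, SE 0.141, edgeR FDR = 0.243, DESeq2 FDR = 0.0464). In DS the saline mice were at 28.3, 19.0 and 24.1 and the ethanol mice at 17.6, 17.8 and 17.9, again with no overlap (-0.44, SE 0.140, edgeR FDR = 0.127, DESeq2 FDR = 0.0813). Without acute saline replicate 4, the DS saline library closest to the ethanol ones, the edgeR FDR was 0.0283. Pallial excitatory neuron markers summed to 399 to 536 CPM in the DS saline and 19.0 to 109 in the DS ethanol libraries with 8 of 8 called lower, and striatal markers to 6680 to 8101 and 8998 to 9271 with 8 of 10 called higher. In vHPC, thalamic neuron markers summed to 189 to 942 in saline and 84.3 to 248 in ethanol libraries. Dentate granule markers there summed to 77.7 to 250 and 307 to 498, and microglia markers to 151 to 179 and 185 to 200. Striatal markers in vHPC summed to 287 to 537 and 287 to 1357, with overlap. Ethanol replicate 4 was the highest in striatal markers and the lowest in Hdac9. The part of these DS and vHPC markers in the Hdac9 values was not tested.

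In VS the groups overlapped (16.2, 22.8 and 17.9 CPM with saline, 15.1, 15.8 and 18.2 with ethanol, log2 fold change -0.21), as they did in dHPC (31.1, 31.1 and 37.0 with saline, 35.4, 33.1, 30.6 and 28.7 with ethanol, -0.06). Pallial excitatory neuron markers in acute VS summed to 328 to 842 CPM with saline and 16.6 to 125 with ethanol (1 of 8 called lower), and their part in the VS value was not tested.

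After chronic exposure no member passed in any region. For Hdac9 the vHPC saline mice were at 44.0, 33.0 and 42.1 CPM and the ethanol mice at 33.0, 20.6 and 27.3 (log2 fold change -0.56, SE 0.177, edgeR FDR = 0.414), the ethanol libraries all lying below the saline ones. Summed markers of 3 cell types lay apart between these saline and ethanol libraries: pallial excitatory neuron markers at 2334 to 2712 and 1565 to 2168 CPM (0 of 8 called), endothelial markers at 120 to 146 and 104 to 110 (0 of 6 called), and choroid plexus markers at 26.1 to 205 and 871 to 3143 (2 of 6 called higher). Striatal markers summed to 262 to 485 and 314 to 1697, and oligodendrocyte markers to 3342.5 to 5775 and 4861 to 9519, with overlap. Ethanol replicate 5 was the highest in both and the lowest in Hdac9 and Hdac5. The part of these markers in the vHPC values of Hdac9, and of Hdac5 further on, was not tested. In VS the saline mice were at 18.4, 20.0 and 16.4 and the ethanol mice at 16.0, 15.3 and 12.8 (-0.32, FDR = 0.497), and in DS, with 2 saline libraries, at 23.9 and 24.3 against 17.7, 22.5, 22.0 and 16.0 (-0.32). Both pairs of groups lay apart without overlap, and pallial markers there summed to 62.0 to 723 (saline) and 13.5 to 77.6 (ethanol) in VS and to 447 to 606 and 20.7 to 167 in DS.

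The chronic CTX and dHPC groups overlapped. CTX saline replicate 3, at 57.3 CPM, was the highest Hdac9 value of all libraries, against 33.7 and 39.0 in the other saline mice and 37.2, 32.6 and 41.7 in the ethanol mice (-0.22). Oligodendrocyte markers summed to 1226 CPM in CTX saline replicate 3, to 2658 and 2234 in the other saline and to 2076 to 3197 in the ethanol libraries. Their part in the chronic CTX values of Hdac9, and of Hdac4 and Hdac7 further on, was not tested. The dHPC saline mice were at 34.6, 25.3 and 41.5 and the ethanol mice at 34.6, 32.9 and 32.0 (-0.04). As each library was left out, this estimate ran from -0.21 to 0.13. Saline replicate 5, at 25.3, had striatal markers of 3068 CPM, against 779 and 273 in the other saline libraries. Those of the ethanol libraries summed to 262 to 401, and their part in the dHPC value was not tested. The Hdac9 estimate was therefore negative in all 10 comparisons, as it was for 0.506% of the 17992 genes tested in all of them. The comparisons share mice across regions and carry the marker differences above.

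**Figure D3:**
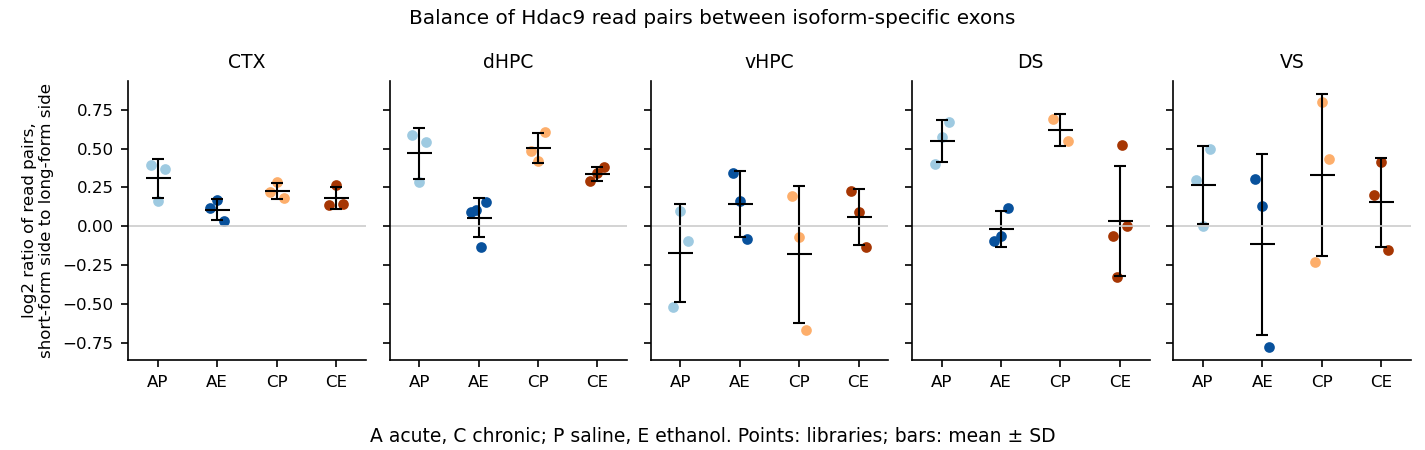
Log2 ratio of read pairs on the short-form side to read pairs on the long-form side of Hdac9, by region and group (A acute, C chronic, P saline, E ethanol). Points are libraries and bars are means with SD. The ethanol mean lay below the saline mean in 8 of 10 comparisons and above it in both vHPC comparisons.

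The split between the 2 protein forms of Hdac9 was approached by read pairs counted for the gene but not on Hdac9-205 (short-form side) and not on Hdac9-201 (long-form side), a split chosen after the data were seen. Pairs on exons of the other Hdac9 isoforms alone count on both sides, so neither side measures 1 protein form by itself. The median ratio of short-side to long-side pairs was 1.13 (CTX), 1.27 (dHPC), 1.01 (vHPC), 1.20 (DS) and 1.19 (VS), over stretches of unlike length (2673 bases of Hdac9-201 not in Hdac9-205 and 6200 the other way). In acute CTX the short-form side was at 14.5, 13.9 and 13.6 CPM with saline and 9.90, 11.2 and 11.2 with ethanol, without overlap (log2 fold change -0.38, edgeR FDR = 0.0647). The long-form side was at 11.0, 12.5 and 10.5 with saline and 9.13, 10.0 and 10.9 with ethanol, with overlap (-0.18, FDR = 0.500).

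Whether the 2 sides differ in their response was tested on the ratio within each library. The log2 ratio was lower with ethanol by -0.20 in acute CTX (exact permutation test, two-sided, p = 0.2), by -0.57 in acute DS (exact p = 0.1), by -0.59 in chronic DS (exact p = 0.133), by -0.41 in acute dHPC (exact p = 0.0571) and by -0.17 in chronic dHPC (exact p = 0.1), all but the first being the smallest p that these group sizes allow. The ratio was also lower in acute VS (-0.38, exact p = 0.5), chronic CTX (-0.05, exact p = 0.5) and chronic VS (-0.18, exact p = 0.7). In vHPC it went the other way (0.31 acute, exact p = 0.2, and 0.24 chronic, exact p = 0.6). Adjusted over the 10 comparisons no p was below 0.333. The smallest p possible was 0.0571 in acute dHPC, 0.133 in chronic DS and 0.1 in the others. No adjusted p could thus fall below 0.1, and the test could not decide whether the sides differ. Marker sums of the DS libraries are given above, and their part in the ratios was not tested.

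At the isoform level, all 12 Hdac9 isoforms were called lower in acute CTX, with log2 fold changes from -0.53 to -0.37 (edgeR, 1.24% of all isoforms called and 0.745% called lower). Hdac9-201 was at -0.45 (FDR = 0.00758) and Hdac9-205 at -0.37 (FDR = 0.0358). In acute DS 4 of the 95 member isoforms tested were called lower (3.59% of all isoforms, 2.31% lower): Hdac9-201 (-0.57, FDR = 0.0366), Hdac9-212 (-0.56), Hdac5-214 and Hdac5-215 (both -0.44). Isoforms share exons and were counted with shared reads, so these are not separate observations. Marker sums of the acute CTX and acute DS libraries are given above, and their part in the isoform calls was not tested. In the other 8 comparisons edgeR called 0 of 95, where it called 0.0015% of all isoforms in acute dHPC, 0.233% in acute VS, 0.0402% in chronic vHPC, 0.00827% in chronic VS and 0 in the others. At an unadjusted p under 0.05 there were 0 to 22 member isoforms in these. No share over all isoforms was computed for that count, so it cannot be read as an excess. DESeq2 called 1 in acute vHPC.

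**Figure D4:**
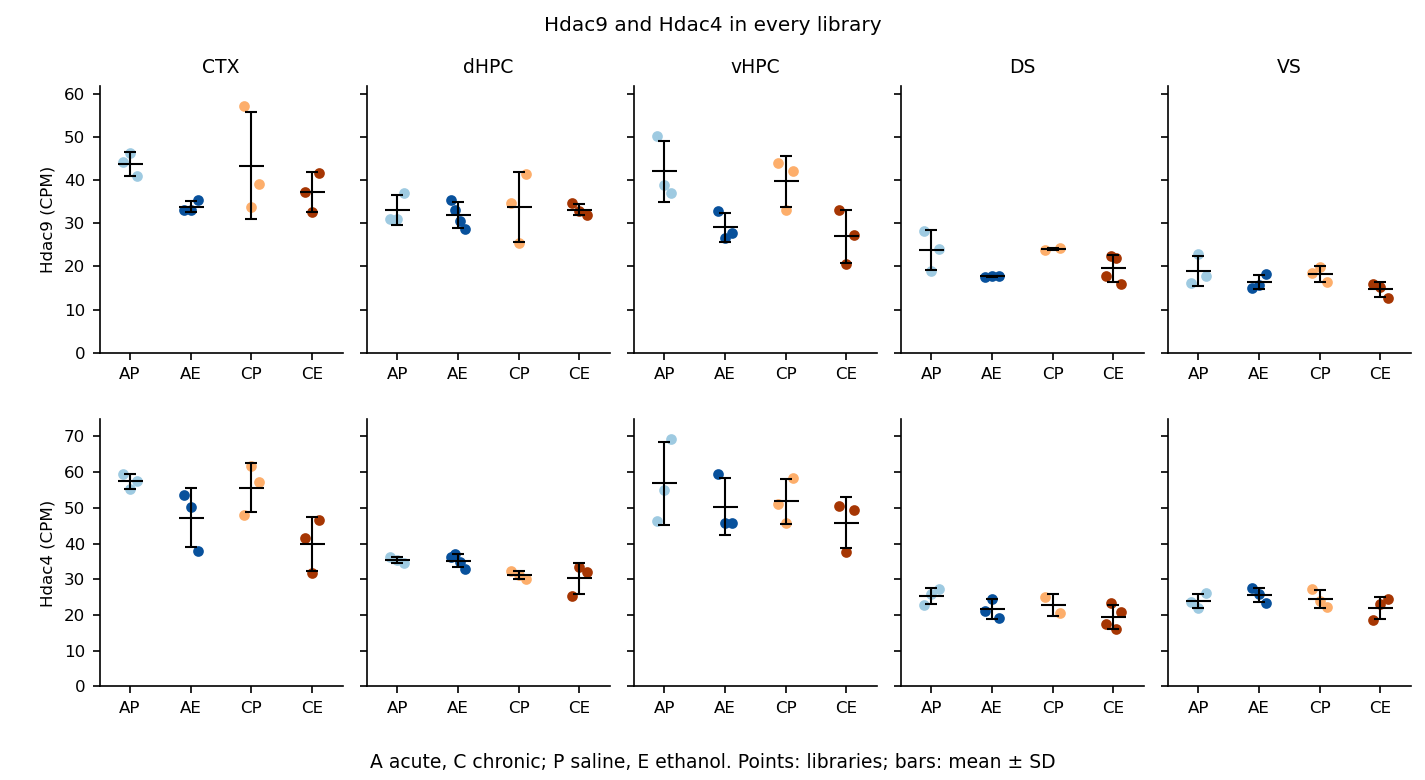
Hdac9 and Hdac4 in every library (CPM, axes from 0), by region and group (A acute, C chronic, P saline, E ethanol). Points are libraries and bars are means with SD. Hdac9 in acute CTX is the only pair of groups that passed the test at the gene level, and saline values of Hdac4 lay above ethanol values in CTX in both paradigms.

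The other class IIa members gave differences that did not pass. Hdac4, a repressor of synaptic gene programmes in neurons, was at 59.6, 55.2 and 57.4 CPM with saline and 53.5, 50.3 and 37.9 with ethanol in acute CTX (log2 fold change -0.29, SE 0.101, edgeR FDR = 0.241, DESeq2 FDR = 0.0954, edgeR FDR = 0.0945 without ethanol replicate 2). In chronic CTX it was at 48.1, 61.8 and 57.1 with saline and 41.5, 31.7 and 46.6 with ethanol (-0.48, SE 0.145, edgeR FDR = 0.443). In both CTX comparisons every ethanol library lay below every saline library. Over the 10 comparisons the Hdac4 estimate was negative in 9, which held for 3.01% of all genes in at least 9.

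Hdac7, best known from vessels and lymphocytes, was at 30.1, 36.2 and 28.3 CPM with saline and 27.2, 22.1 and 22.8 with ethanol in chronic CTX, without overlap (-0.39, FDR = 0.443). Hdac5, linked to responses to cocaine and stress, was at 129, 136 and 156 with saline and 128, 120 and 119 with ethanol in acute DS (-0.22, FDR = 0.173) and at 161, 149 and 163 against 128, 126 and 141 in chronic vHPC (-0.26, FDR = 0.452). Both pairs of groups were just separate. Marker sums of these libraries are given above, and their part in the Hdac5 values was not tested. Hdac5 and Hdac7 estimates were each negative in 8 of 10 comparisons, a count for which no share over all genes was computed.

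Among class I, IIb and IV members, estimates were negative in 4 of 10 comparisons for Hdac2 and Hdac6. They were negative in 3 for Hdac1, Hdac3, Hdac8 and Hdac11. The comparisons share mice and marker differences, and a difference between classes was not tested. Hdac1 was at 29.5, 28.7 and 25.8 CPM with saline and at 35.9, 33.8 and 38.3 with ethanol in acute vHPC, a log2 fold change of 0.36 (SE 0.103, edgeR FDR = 0.257) between groups that did not overlap and whose dentate granule marker sums are given above. Hdac3, the enzyme of the NCoR complex, was at 44.6, 50.8 and 45.7 with saline and 53.8, 52.6 and 55.0 with ethanol in acute DS (0.17, FDR = 0.310). Hdac11 in VS was at 192, 217 and 189 with saline and 187, 260 and 255 with ethanol after acute and at 183, 224 and 193 against 256, 232 and 220 after chronic exposure (0.23 in each). The acute groups overlapped, and so did the chronic ones. The pallial marker sums of these VS libraries and of the acute DS libraries are given above. Their part in the Hdac11 and Hdac3 values was not tested.

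The number of members whose groups did not overlap was 2 of 10 in acute CTX (17.6% of all genes), 3 in acute vHPC (17.7%), 3 in acute DS (21.2%), 2 in chronic CTX (18.3%), 1 in chronic dHPC (14.2%), 2 in chronic vHPC (14.8%), 3 in chronic DS (17.2%) and 3 in chronic VS (16.1%). In acute dHPC (8.11%) and acute VS (12.2%) there was none. Counts of 0 to 3 of 10 lay near these shares. The median log2 fold change over the members lay between -0.06 and 0.03 in the 10 comparisons, beside -0.01 to 0.01 over all genes.

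**Figure D5:**
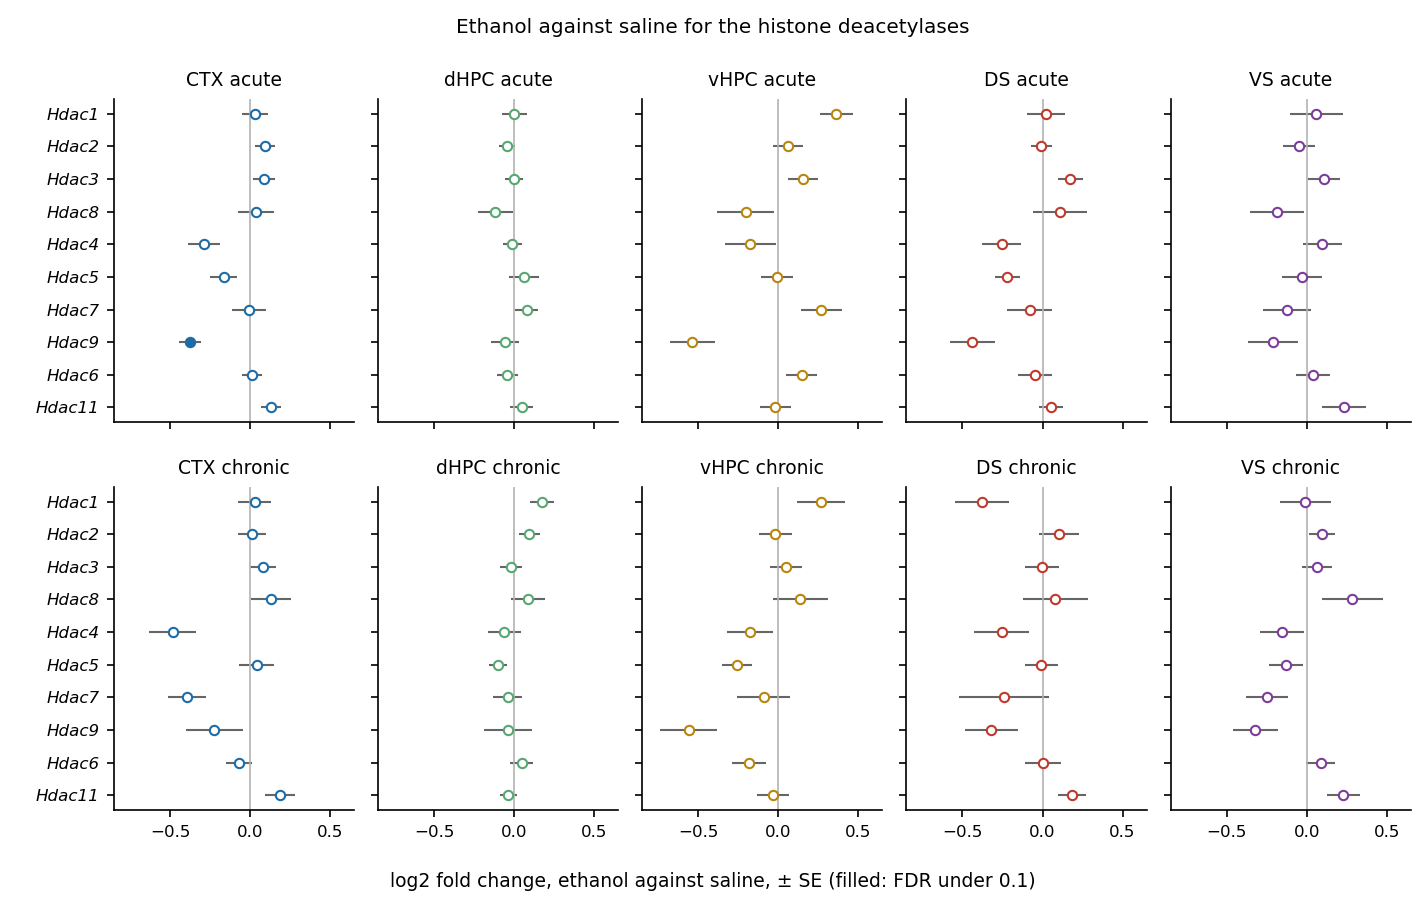
Log2 fold change of each member, ethanol against saline, in the 5 regions after acute and chronic exposure. Points are edgeR estimates and bars are 1 SE, with the 1 call at an FDR below 0.1, Hdac9 in acute CTX, filled. Hdac9 lay below 0 in all 10 comparisons.

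In the 9 comparisons other than acute CTX, edgeR called 0 of 10 members. The share of all genes called there was 0.042% in acute dHPC, 0 in acute vHPC, 5.15% in acute DS, 0.0399% in acute VS, 0.0555% in chronic vHPC and 0 in the other chronic comparisons. At an unadjusted p under 0.05 there were 2 members in acute vHPC (11.9% of all genes), 3 in acute DS (15.5%), 2 in chronic CTX (10.4%), 2 in chronic vHPC (9.51%) and 1 in chronic VS (9.95%). There were 0 in acute dHPC (7.88%), acute VS (7.32%), chronic dHPC (8.23%) and chronic DS (7.53%), and 2 in acute CTX (12.5%), Hdac9 and Hdac4. DESeq2 called Hdac9 in acute vHPC and acute DS and no other member in these 9. The SE of the members' log2 fold changes ran from 0.051 to 0.282 across the 10 comparisons, the largest in DS with 2 saline libraries.

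Whether the ethanol effect depended on exposure history was tested by the interaction of paradigm and treatment in each region. DESeq2 called none of the 10 members in any region. Over all genes its interaction calls numbered 417 for vHPC, 21 for CTX and 2 to 4 for each remaining region. EdgeR likewise called 0 of 10 members in all 5 regions, where 0% of all genes were called. At an unadjusted p under 0.05 there was 1 member in CTX (8.19% of all genes) and 1 in vHPC (11.5%), and 0 in dHPC (4.48%), DS (4.16%) and VS (4.62%). The members were Hdac7 in CTX, whose log2 effect was lower after chronic than after acute exposure by -0.40 (SE 0.179, edgeR FDR = 0.600), and Hdac6 in vHPC (-0.33, SE 0.136, FDR = 0.387). Hdac6 there was at 35.7, 35.6 and 38.9 CPM with saline and 43.7, 37.0 and 41.3 with ethanol after acute exposure, and at 39.4, 43.4 and 45.0 against 37.3, 35.6 and 39.9 after chronic exposure.

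The proteins that histone deacetylases work with or against were counted in 6 lists, all members of which were tested: 13 lysine acetyltransferases, 27 subunits of class I corepressor complexes, 10 class IIa partners (MEF2 and 14-3-3 genes), 7 sirtuins, 3 BET readers of acetylated lysine and 5 genes of nuclear acetyl-CoA supply. Ethanol calls were few. In acute CTX 1 class IIa partner rose, the transcription factor Mef2a, at 121, 124 and 119 CPM with saline and 142, 135 and 140 with ethanol (log2 fold change 0.19, SE 0.049, edgeR FDR = 0.0926). No other gene of the 6 lists passed in CTX.

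In acute DS, where 5.15% of all genes passed, 3 of the 10 class IIa partners fell, among them the MEF2 factor Mef2c, at 191, 177 and 196 CPM with saline and 137, 112 and 127 with ethanol (-0.60, FDR = 0.000799), and the 14-3-3 protein Ywhah, at 413, 450 and 438 against 302, 310 and 315 (-0.51, FDR = 0.000304). Of the 27 corepressor genes 1 fell and 1 rose there. The NuRD helicase Chd5 was at 172, 160 and 156 with saline and 114, 117 and 120 with ethanol (-0.50, FDR = 0.000907), and the NCoR subunit Tbl1x rose by 0.26 (FDR = 0.0570). Acss2, which makes acetyl-CoA from acetate, was the 1 of 5 supply genes that fell (-0.36, FDR = 0.0641), at 37.4, 36.6 and 34.3 against 26.3, 30.6 and 28.5.

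These genes too differed between regions. Ywhah was lower in DS than in vHPC by -1.54 (log2), Acss2 by -0.71, and Tbl1x was higher by 1.10 (pallial marker sums in the DS libraries are given above, and their part in the ethanol values was not tested). By list, 20 of 27 corepressor genes were lower and 3 higher in DS than in vHPC (18 and 4 in VS), as were 7 and 1 of the 10 class IIa partners, with list medians of -0.27 and -0.24 (log2) beside 28.3% of all genes called lower and 28.9% called higher. Of the 13 lysine acetyltransferases, 4 were higher and 4 lower in DS than in vHPC, 1 higher and 4 lower in VS than in vHPC, and 0 higher and 6 lower in VS than in DS. Over the 22380 genes tested, 5793 were called higher and 5347 lower in VS than in vHPC. For VS against DS these numbers were 3723 and 3296. None of the 6 lists had a gene called in acute dHPC, acute vHPC, acute VS or any chronic comparison, where calls over all genes were also few or none.

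The genes whose log2 CPM followed each member other than Hdac9 most closely over the 61 libraries, after centring within each batch, were given as a description. The libraries share mice, regions and batches. Hdac4 was followed by Ank2 (r = 0.95), Bsn and Arhgap35 (both 0.94), Hdac1 by Ahcyl2 (0.94) and Hdac11 by 6330403K07Rik (0.91). The closest genes were at 0.87 for Hdac6, 0.85 for Hdac2, 0.83 for Hdac7, 0.76 for Hdac5, 0.72 for Hdac3 and 0.62 for Hdac8, the member with the fewest read pairs.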

How the data were processed

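Per the submitters' processing notes and the paper's methods, reads of vHPC, DS and VS were demultiplexed with bcl2fastq and those of CTX and dHPC with bases2fastq, and all were trimmed with cutadapt 5.0, aligned to GRCm39 with STAR 2.7.10a and counted on exons of the Ensembl annotation with featureCounts 2.0.6. The authors deposited raw counts of read pairs per gene and per isoform, with no normalization or filter. All libraries were counted as reverse-stranded, and a pair with several mapping places or overlapping features counted once for each of them, so isoforms and near-identical genes share reads.

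Tests used edgeR's quasi-likelihood F test (edgeR 4.0.16, limma 3.58.1, R 4.3.3, TMM, prior count 0.125) on features that reached 5 counts in 2 or more libraries of a group. FDR is the Benjamini-Hochberg value over all features tested, read at 0.1. Each ethanol comparison was fitted to its own groups, the interaction to the 4 groups of a region, and regions to all libraries of a batch with the mouse as a block. Levels are CPM on 1 TMM scale over 61 libraries, so levels set across the batches also carry their kit and platform. Summed markers are over lists of each cell type. Read pairs are not independent molecules, and a median of 172 (Hdac8) to 3345 (Hdac11) pairs per library sets the counting precision. Permutation tests used scipy 1.17.1 (Python 3.11.15). The code was tested on simulated data.

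All 10 members are described in every comparison, and from each of the 6 pathway lists at most the 2 genes with the smallest FDR are named per comparison. Members, pathway lists and marker lists were chosen with earlier results of these data known. Alternatives were DESeq2 1.42.0 (the paper's tool), edgeR with DESeq2's size factors, testing without the filter on low counts, a stricter filter of 10 counts in all libraries, all 4 groups in one fit, leaving out single libraries, and a replicate block. DS chronic saline replicate 2 was left out of all fits but 1 alternative. Protein sequences were not used here. The genes that follow Hdac9 most closely across libraries are not reported here.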

Additional observations from a re-analysis of the deposited data

Results flagged for a closer look

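Each group of 4 libraries was searched for a library standing apart from the other 3 in each member (Dixon's test, 20 tests). It found 0, where chance gives about 5%.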

How the results depend on the processing

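No value that passed the test changed sign under any alternative. The counts of members called that moved by over 1.5 times were as follows. With DESeq2, 2 members were called in acute CTX (Hdac4 and Hdac9), 1 in acute vHPC and 1 in acute DS (Hdac9 in each). With no low-count filter the numbers were 3 in acute CTX, 1 in acute DS and 1 in chronic vHPC, and with all 4 CTX groups in one fit 0 in acute CTX. With saline libraries alone 1 was called for VS against DS. For isoforms, no filter gave 24 in acute CTX, 10 in acute DS and 10 in chronic vHPC, and DESeq2 gave 1 in acute vHPC and 2 in acute DS. The cause of these moves was not tested. As each library was left out, members called ran from 0 to 2 in acute CTX and 0 to 1 in acute DS, and isoforms called from 2 to 20 in acute CTX, 0 to 2 in acute DS, 0 to 2 in acute VS and 0 to 4 in chronic vHPC. The acute CTX call of Hdac9 was lost without saline replicate 4, without ethanol replicate 4 and with all 4 CTX groups in one fit. Over all genes edgeR and DESeq2 called 515 and 957 in acute CTX, 11 and 281 in acute dHPC, 0 and 578 in acute vHPC, 8 and 178 in acute VS, 11 and 214 in chronic vHPC, and 0 against 156, 223, 154 and 364 in the chronic comparisons of CTX, dHPC, DS and VS. For the interactions edgeR called 0 genes throughout, while DESeq2 called 417 for vHPC, 21 for CTX and 2 to 4 for each remaining region.

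Replicate numbers name different mice in the saline and ethanol groups and did not pair the libraries (correlations of their deviations from -0.16 to 0.09). With the replicate block 1 member was called in acute CTX (789 genes), 0 in acute dHPC (15) and 0 in chronic CTX (143). The other pairs of groups share fewer than 2 numbers, so no paired analysis was possible there. With no replicate block in the region fits 9, 8, 7 and 6 members were called for dHPC against CTX, DS against vHPC, VS against vHPC and VS against DS. With 3 or 4 mice a group and SEs up to 0.282 on the log2 scale, small differences of the members were not detectable.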
